A study of Homo sapiens with 8 samples.

Results

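Decitabine (DAC) acts only after a cell has taken it up and phosphorylated it, and the RNA of 8 genes that carry out or oppose these steps was followed here in THP-1 cells and a line of them selected for resistance to DAC. The genes were taken by symbol from the deposited table, which lists 60664 genes: SLC29A1 and SLC29A2 for uptake, DCK and CMPK1 for activation, and CDA, DCTD, SAMHD1 and DCTPP1 for inactivation. Each of the 8 symbols had 1 row, and all 8 passed the filter on low values that left 14899 genes for testing. THP-1, a line from a human acute monocytic leukemia, is labelled WT in every group, and DAC is a deoxycytidine analogue used as a DNA hypomethylating agent. RNA-seq was made from parental cells with DMSO, parental cells with 1 µM DAC, DAC-resistant cells with DMSO and DAC-resistant cells with 1 µM DAC, each for 6 days and with 2 biological replicates, which gave 8 libraries. The DAC-resistant line had been selected by the authors from THP-1 through repeated pulses of DAC with drug-free recovery between them, and was kept in drug-free medium for weeks before the experiment. It is 1 selected line, and whether it is a clone is not given in the sources used here. The design therefore asks how these genes responded to DAC in each line and how the lines differed with and without the drug.

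As background, nucleosides cross the plasma membrane through equilibrative transporters, of which SLC29A1 (ENT1) and SLC29A2 (ENT2) are the best known, and these also carry DAC. In the cell DCK, the deoxycytidine kinase, adds the first phosphate, the UMP-CMP kinase CMPK1 adds the next, and nucleoside diphosphate kinases complete the triphosphate, which is built into DNA and traps DNA methyltransferases. CDA (cytidine deaminase) converts the free nucleoside to an inactive uridine form, DCTD (dCMP deaminase) deaminates the monophosphate, SAMHD1 removes the triphosphate group from deoxynucleotides and from the drug, and DCTPP1 cleaves dCTP and related analogues to the monophosphate. Loss of DCK or a raised level of CDA is a known way in which leukemia cells can escape the drug.

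Depth was similar across libraries, with between 28717841 and 33416782 reads on genes, as recovered from the steps that whole reads leave in the deposited values. In every library this lay above the total that scales the FPKM, which was between 27480502 and 31916835, so the reads on genes are approximate. FPKM are reads scaled by exon length and by the total of the library. All 8 monocytic markers examined (CD14, CD33, ITGAM, LYZ, CSF1R, SPI1, CD68 and FCGR1A) reached 1 FPKM in at least 2 libraries. Their summed level was 181 FPKM in both parental DMSO libraries, 281 and 288 with DAC, and between 109 and 119 in the 4 DAC-resistant libraries. T cell markers summed to between 0 and 0.727 FPKM, erythroid markers to between 0 and 3.17, epithelial markers to between 0.0645 and 1.55, and B and plasma cell markers to between 5.35 and 8.56. Fibroblast markers summed to 0.644 and 0.693 FPKM in parental cells with DMSO and to between 8.90 and 10.1 in the other 6 libraries. Of the listed markers with a row none was at 0 in every library. What part any of these marker levels have in the results below was not tested.

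DAC acts on methylation at CpG sites, so the promoter windows of the RefSeq table (GRCh38.p14, from 250 bases before to 50 bases after a gene's start) were read for 7 of the 8 genes, 9 windows in all, since SLC29A1 and DCTD have 2 each. CDA had the fewest CpG sites and the largest difference between the lines, and SLC29A1 the largest rise in DAC-resistant over parental cells in DMSO. The 3 windows shown are therefore those of CDA, SLC29A1 (the window nearer the annotated gene start) and the activating kinase DCK. They are on the plus strand, at chr1:20588847-20589146 for CDA, chr6:44219365-44219664 for SLC29A1 and chr4:70993399-70993698 for DCK. Capitals mark each CpG.
CDA: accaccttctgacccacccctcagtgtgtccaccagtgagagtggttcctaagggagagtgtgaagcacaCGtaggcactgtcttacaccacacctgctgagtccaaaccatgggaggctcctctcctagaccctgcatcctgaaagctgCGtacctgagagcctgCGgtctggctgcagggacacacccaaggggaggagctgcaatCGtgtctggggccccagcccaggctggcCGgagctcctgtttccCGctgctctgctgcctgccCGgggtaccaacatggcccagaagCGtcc
SLC29A1: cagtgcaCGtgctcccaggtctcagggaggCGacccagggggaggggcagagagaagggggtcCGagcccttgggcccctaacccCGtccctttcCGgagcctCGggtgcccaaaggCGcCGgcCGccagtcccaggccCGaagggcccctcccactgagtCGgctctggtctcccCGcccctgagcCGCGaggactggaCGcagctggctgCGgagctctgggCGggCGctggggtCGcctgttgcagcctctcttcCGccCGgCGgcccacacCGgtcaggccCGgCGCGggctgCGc
DCK: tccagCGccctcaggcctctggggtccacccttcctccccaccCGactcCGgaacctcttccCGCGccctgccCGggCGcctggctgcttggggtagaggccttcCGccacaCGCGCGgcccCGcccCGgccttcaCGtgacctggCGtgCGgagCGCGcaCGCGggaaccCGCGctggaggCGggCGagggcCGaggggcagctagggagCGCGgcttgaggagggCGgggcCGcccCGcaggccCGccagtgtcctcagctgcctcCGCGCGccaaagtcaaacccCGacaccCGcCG

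The CDA window held 8 CpG sites in 300 bases, an observed over expected ratio of 0.28. The other 8 windows held between 22 (SAMHD1) and 47 (1 of the DCTD windows), with 37 in DCK and 27 and 34 in SLC29A1. Over all 35116 windows of the table the median was 14 CpG sites, with quartiles of 4 and 28, so CDA lay below the median and each of the others above it. The letters GAAA, then any 2 bases, then GAAA, a core that interferon-activated factors are known to bind, were searched on both strands with overlapping matches counted, and were in none of the 9 windows. They were in 3.57% of all windows. Such letters describe the window only, and methylation was not measured here.

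Per exon length, CMPK1 was the most abundant of the 8 RNAs in the parental line with DMSO, at 83.5 ± 0.862 FPKM (SD, n = 2). SAMHD1 followed at 36.5 ± 0.327, DCK at 27.0 ± 0.740 and SLC29A1 at 22.9 ± 0.305. DCTD, at 20.2 and 19.8 FPKM in the 2 libraries, and DCTPP1, at 19.2 and 20.4, came next. SLC29A2 and CDA stood about an order of magnitude lower, at 2.28 ± 0.332 and 2.26 ± 0.123 FPKM. Of neighbours in this order, DCTD and DCTPP1 overlapped between libraries, and so did SLC29A2 and CDA. The recovered reads behind the values of DCK lay between 1961 and 2707 per library, and those of CDA between 7 and 79.

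**Figure D1:**
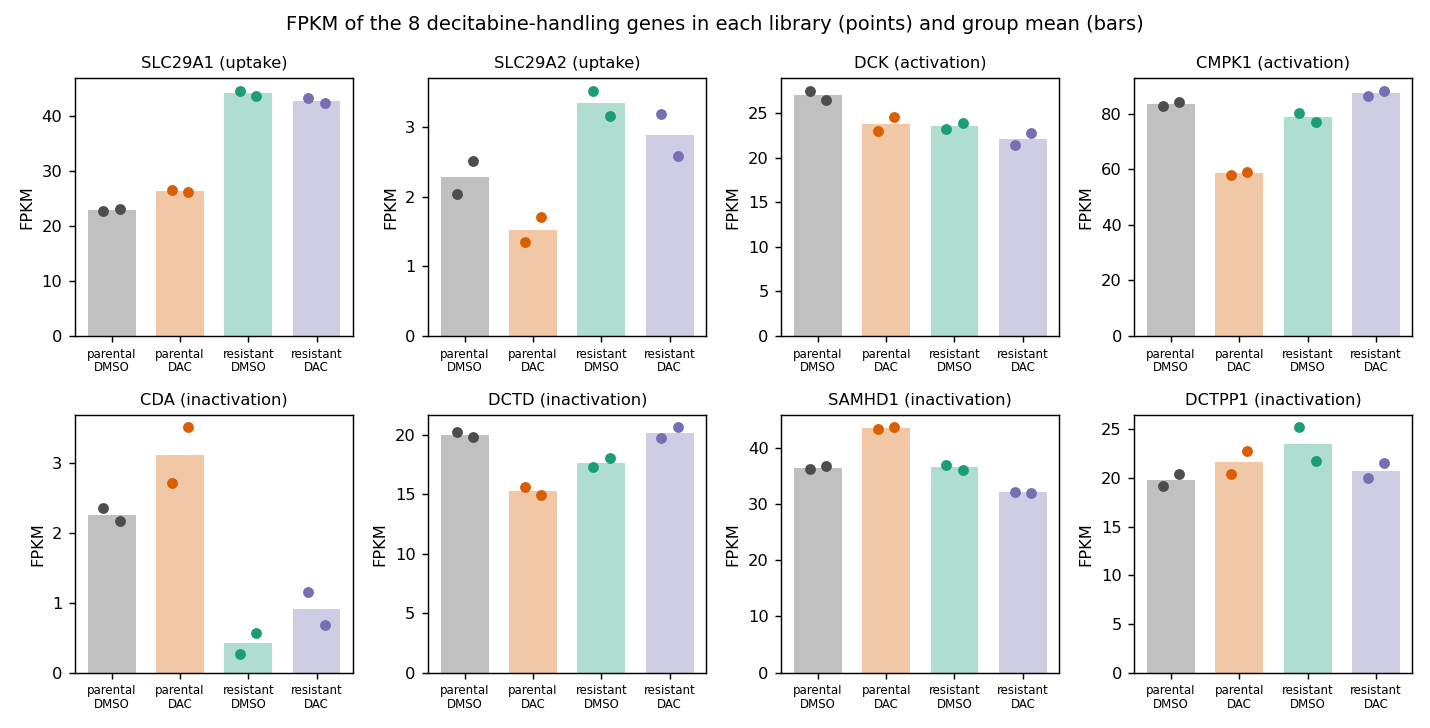
FPKM (vertical axes, each starting at 0) of the 8 genes in the 4 groups, with points for the 2 libraries and bars for the group mean. SLC29A1 is highest in both DAC-resistant groups, at 44.1 and 42.8 FPKM, CDA is lowest there, at 0.419 and 0.912, and CMPK1 and DCTD are lowest in parental cells with DAC, at 58.6 and 15.2.

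The uptake genes were higher in DAC-resistant cells than in parental cells, SLC29A1 by 1.93-fold and SLC29A2 by 1.47-fold of the mean FPKM in DMSO. SLC29A1 (ENSG00000112759, chromosome 6, 44219553 to 44234142, plus strand, GRCh38) stood at 22.7 and 23.1 FPKM in the parental line with DMSO, 26.6 and 26.2 with DAC, 44.6 and 43.6 in the DAC-resistant line given DMSO, and 43.2 and 42.4 with DAC. All 4 DAC-resistant libraries lay above all 4 parental ones, and no 2 groups overlapped. By limma on log2(FPKM + 1), the scale of all fold changes below, SLC29A1 was higher in DAC-resistant cells by 0.92 in DMSO (standard error 0.027, adjusted p = 1.6e-06) and by 0.68 under DAC (adjusted p = 2.3e-06). With DAC it rose by 0.20 in parental cells (adjusted p = 0.000998), a 1.15-fold rise, while in DAC-resistant cells the value of -0.04 was not called (95% interval -0.11 to 0.02). The rise with DAC in parental cells was 0.11 under quantile normalization (adjusted p = 0.0082) and 0.08 under upper-quartile scaling (adjusted p = 0.0327). With each library of a comparison left out in turn, the rise in DAC-resistant cells stayed between 0.90 and 0.93 in DMSO.

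SLC29A2 (ENSG00000174669, chromosome 11, 66362521 to 66372214, minus strand), the less abundant of the pair, had 2.04 and 2.51 FPKM in the parental line with DMSO, 1.35 and 1.70 with DAC, 3.52 and 3.16 in the DAC-resistant line given DMSO, and 3.18 and 2.58 with DAC. Its order ran from parental cells with DAC, the lowest, through parental cells with DMSO to DAC-resistant cells with DAC and then DMSO, and the last 2 groups overlapped. It was higher in DAC-resistant cells by 0.41 in DMSO (standard error 0.122, adjusted p = 0.0263) and by 0.62 under DAC (adjusted p = 0.00375), and with DAC in parental cells it fell by 0.38 (adjusted p = 0.0355). DAC-resistant cells showed no called change with DAC (-0.16, 95% interval -0.46 to 0.13). The call in DMSO was lost without parental DMSO replicate 1 (0.30, adjusted p = 0.132), DAC-resistant DMSO replicate 1 (0.35, adjusted p = 0.121) or DAC-resistant DMSO replicate 2 (0.47, adjusted p = 0.0544), and that with DAC in parental cells without parental DMSO replicate 2 (-0.27, adjusted p = 0.170) or parental DAC replicate 1 (-0.28, adjusted p = 0.176). With values this low the pseudocount of 1 shortens the fold change, and with 0.1 the values were 0.54 in DMSO, 0.88 under DAC and -0.55 with DAC in parental cells. An antisense RNA, B4GAT1-DT, covers 10.3% of its exon bases at between 0.410 and 0.870 FPKM, and whether the counting used the strand is not given in the sources used here.

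DCK, the kinase that commits the drug to activation, was present in every group at close to its parental level. DCK (ENSG00000156136, chromosome 4, 70992538 to 71030914, plus strand) stood at 27.5 and 26.5 FPKM in the parental line with DMSO, 23.0 and 24.5 with DAC, 23.2 and 23.9 in the DAC-resistant line given DMSO, and 21.4 and 22.7 with DAC. Both parental DMSO libraries lay above the 6 others, which differed little, and parental cells with DAC overlapped with DAC-resistant cells with DMSO. DCK was lower in DAC-resistant than in parental cells with DMSO, with a log2 difference of -0.19 (standard error 0.045, adjusted p = 0.0107 by limma), a level of 0.872 of the parental mean. With DAC in parental cells it fell by 0.18 (adjusted p = 0.0137). Neither DAC in DAC-resistant cells (-0.09, 95% interval -0.20 to 0.02) nor the lines under DAC (-0.10, 95% interval -0.21 to 0.01) gave a called difference. The call between the lines in DMSO was lost without parental DMSO replicate 1 (-0.16, adjusted p = 0.0612), without DAC-resistant DMSO replicate 1 (-0.17, adjusted p = 0.0592) and with FPKM rescaled to TPM (-0.13, adjusted p = 0.0750), and that with DAC without parental DMSO replicate 1 (-0.15, adjusted p = 0.0744) or parental DAC replicate 1 (-0.14, adjusted p = 0.0732). The value reached -0.29 between the lines under quantile normalization and -0.29 with DAC in parental cells under upper-quartile scaling. The neighbouring gene MOB1B shares 6.41% of the exon bases of DCK on the same strand.

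CMPK1, which adds the next phosphate, moved with DAC in opposite directions in the 2 lines. CMPK1 (ENSG00000162368, chromosome 1, 47333790 to 47394866, plus strand) had 82.9 and 84.2 FPKM in the parental line with DMSO, 57.9 and 59.2 with DAC, 80.4 and 77.1 in the DAC-resistant line given DMSO, and 86.6 and 88.4 with DAC. No groups overlapped, and the 2 parental DAC libraries lay far below the other 6. With DAC in parental cells it fell by 0.51 on the log2 scale (standard error 0.029, adjusted p = 1.8e-05), to 0.701 of the DMSO mean. In DAC-resistant cells DAC raised it by 0.15 (adjusted p = 0.0237), and this call was lost with any of the 4 libraries left out (0.12 to 0.18, adjusted p from 0.0514 to 0.125). An interaction term, which tests whether DAC acted unequally in the lines, came to 0.66 (standard error 0.041, adjusted p = 4.4e-05). Under DAC the DAC-resistant line was higher by 0.57 (adjusted p = 6.2e-06). Without drug it was lower, with a log2 difference of -0.08 (adjusted p = 0.0435), a call lost without parental DMSO replicate 1 (-0.09, adjusted p = 0.0883), parental DMSO replicate 2 (-0.07, adjusted p = 0.161) or DAC-resistant DMSO replicate 2 (-0.05, adjusted p = 0.216), and with FPKM rescaled to TPM (-0.01). It was larger under quantile normalization (-0.19, adjusted p = 0.00132) and upper-quartile scaling (-0.18, adjusted p = 0.00133).

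Among the inactivating enzymes CDA differed most between the lines, and it was lower in DAC-resistant cells, at a 5.39-fold lower mean FPKM in DMSO and a 3.41-fold lower one under DAC. CDA (ENSG00000158825, chromosome 1, 20589086 to 20618903, plus strand) stood at 2.35 and 2.17 FPKM in the parental line with DMSO, 2.71 and 3.51 with DAC, 0.270 and 0.568 in the DAC-resistant line given DMSO, and 1.15 and 0.677 with DAC. The 4 DAC-resistant libraries lay below the 4 parental ones, and no groups overlapped. Few reads lie behind these values: 61 and 54, then 61 and 79, in the parental libraries, and 7 and 14, then 30 and 17, in the DAC-resistant ones. Each parental library reached the 1 FPKM of the filter on low values, but only 1 of the DAC-resistant ones did. CDA therefore passed the filter through the line where it is high. The exact Poisson 95% interval of the highest DAC-resistant library was 0.773 to 1.64 FPKM and that of the lowest parental one 1.63 to 2.83, and these intervals cover counting error only. The log2 fold change between the lines was -1.21 in DMSO (standard error 0.169, adjusted p = 0.00103 from limma) and -1.11 under DAC (adjusted p = 0.00116). In TPM the value in DMSO was -1.83. With 0.1 added in place of 1 the values were -2.24 and -1.69, and by voom on the recovered reads -2.48 and -1.78 (adjusted p = 0.000757 and 0.00120). The ratio of mean FPKM in DMSO was 8.37-fold lower without DAC-resistant DMSO replicate 2 and 3.98-fold lower without replicate 1, and under DAC it ranged from 2.70-fold to 4.59-fold lower with a library left out. Left-out libraries moved the log2 value in DMSO between -1.36 and -1.05, with adjusted p-values up to 0.00869. In bulk RNA, fewer cells with the transcript and less of it per cell cannot be told apart, and the summed level of the monocytic markers above was also lower in DAC-resistant libraries. Most of that sum is SPI1, at a mean of 102 FPKM in parental cells with DMSO. In DMSO CD68 had a higher mean in DAC-resistant cells (1.04 against 0.504 FPKM, not called), while the other listed monocytic markers were lower.

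CDA had a higher mean with DAC than with DMSO in both lines, by 1.37-fold in parental and 2.17-fold in DAC-resistant cells, but neither change passed the test. The log2 fold change was 0.33 in parental cells (95% interval -0.08 to 0.73, adjusted p = 0.142) and 0.43 in DAC-resistant cells (95% interval 0.02 to 0.83, adjusted p = 0.168). Without parental DAC replicate 2 the former was 0.19. The latter ranged from 0.25 without DAC-resistant DAC replicate 1 to 0.60 without DAC-resistant DAC replicate 2, and its ratio of mean FPKM from 1.61-fold without DAC-resistant DMSO replicate 1 to 3.38-fold without DAC-resistant DMSO replicate 2. The log2 value was 0.98 with a pseudocount of 0.1, 0.80 in TPM and 1.14 by voom, none of them called. The difference between the 2 effects was 0.10 (95% interval -0.47 to 0.67).

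**Figure D2:**
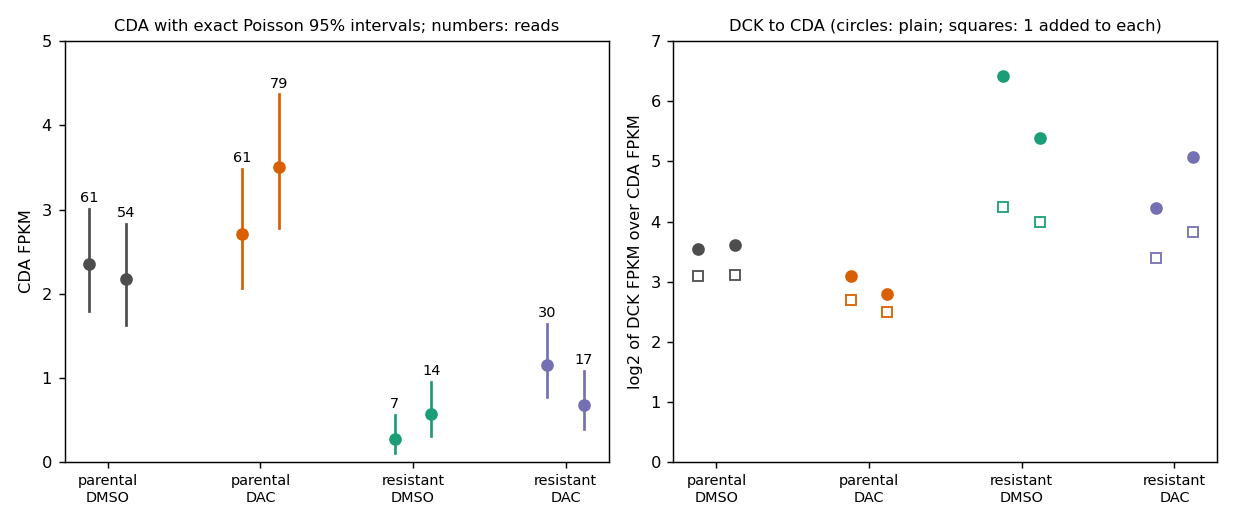
Left, CDA FPKM in each library with exact Poisson 95% intervals and the number of reads above each; right, log2 of DCK FPKM over CDA FPKM in each library, as circles without a pseudocount and as squares with 1 added to each. The DAC-resistant libraries have 7 to 30 CDA reads against 54 to 79 in the parental ones, and their DCK to CDA ratio is above that of each parental library in either form.

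The balance of DCK to CDA has been used as an index of how far cells activate rather than deaminate DAC, and it was computed as a description, with no test. The ratio of FPKM was 11.7 and 12.2 in the parental line with DMSO, 8.50 and 6.97 with DAC, 85.6 and 42.1 in the DAC-resistant line given DMSO, and 18.7 and 33.6 with DAC. It was higher in each DAC-resistant library than in any parental one, and lower with DAC than with DMSO in both lines. On the log2 scale with 1 added to each gene the group means were 3.10 ± 0.016, 2.60 ± 0.139, 4.12 ± 0.184 and 3.60 ± 0.308 (SD, n = 2) in the same order.

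DCTD, which deaminates the monophosphate, followed the pattern of CMPK1. DCTD (ENSG00000129187, chromosome 4, 182890060 to 182917936, minus strand) had 20.2 and 19.8 FPKM in the parental line with DMSO, 15.6 and 14.9 with DAC, 17.3 and 18.0 in the DAC-resistant line given DMSO, and 19.7 and 20.6 with DAC. The parental DAC libraries were lowest, and parental cells with DMSO overlapped with DAC-resistant cells with DAC. DCTD fell by 0.38 with DAC in the parental line (standard error 0.040, adjusted p = 0.000306) and rose by 0.18 in the DAC-resistant one (adjusted p = 0.0375), and the difference between the effects was 0.56 (adjusted p = 0.000356). The rise in DAC-resistant cells lost its call with any of the 4 libraries left out (0.15 to 0.21, adjusted p from 0.0819 to 0.171) and under quantile normalization (0.17, adjusted p = 0.0558) and upper-quartile scaling (0.17, adjusted p = 0.0501). Between the lines DCTD was lower in DAC-resistant cells in DMSO (-0.18, adjusted p = 0.00915) and higher under DAC (0.38, adjusted p = 0.000200), and the former was lost without parental DMSO replicate 1 (-0.16, adjusted p = 0.0501) or DAC-resistant DMSO replicate 1 (-0.15, adjusted p = 0.0543). The value in DMSO was -0.11 in TPM (adjusted p = 0.0486) and -0.28 under quantile normalization (adjusted p = 0.00148).

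SAMHD1, the triphosphohydrolase, moved the opposite way to CMPK1 and DCTD. SAMHD1 (ENSG00000101347, chromosome 20, 36890229 to 36951893, minus strand) had 36.2 and 36.7 FPKM in the parental line with DMSO, 43.4 and 43.6 with DAC, 36.9 and 36.1 in the DAC-resistant line given DMSO, and 32.2 and 31.9 with DAC. The parental DAC libraries were the highest, the DAC-resistant DAC libraries the lowest, and the 2 DMSO groups overlapped. DAC raised it in parental cells by 0.25 (standard error 0.025, adjusted p = 0.000214) and in DAC-resistant cells it fell by 0.18 (adjusted p = 0.00827), a difference between the effects of -0.43 (adjusted p = 0.000134). The fall in DAC-resistant cells lost its call without DAC-resistant DMSO replicate 1 (-0.17, adjusted p = 0.0579) or DAC-resistant DAC replicate 2 (-0.18, adjusted p = 0.0586), and the rise in parental cells was 0.13 under upper-quartile scaling (adjusted p = 0.00294). Under DAC the DAC-resistant line was lower, with a log2 difference of -0.43 (adjusted p = 1.1e-05). In DMSO the lines differed by 0.0023 (95% interval -0.06 to 0.06), which turned to -0.11 under quantile normalization (adjusted p = 0.00682) and to -0.09 with upper-quartile scaling (adjusted p = 0.0149).

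DCTPP1, the dCTP pyrophosphatase, passed the test in none of the 4 comparisons or in their difference. DCTPP1 (ENSG00000179958, chromosome 16, 30423615 to 30430030, minus strand) had 19.2 and 20.4 FPKM in the parental line with DMSO, 20.4 and 22.8 with DAC, 25.2 and 21.7 in the DAC-resistant line given DMSO, and a mean of 20.7 ± 1.07 (SD, n = 2) with DAC. Groups overlapped except for DAC-resistant cells with DMSO, which lay above parental cells with DMSO and DAC-resistant cells with DAC. Of the 4 comparisons the widest was 0.23 between the lines in DMSO (95% interval 0.03 to 0.44, adjusted p = 0.0555 by limma), and this was called in TPM (0.31, adjusted p = 0.0350), by voom (0.24, adjusted p = 0.0221), with a filter on a mean of 5 FPKM (adjusted p = 0.0292) and without DAC-resistant DMSO replicate 2 (0.34, adjusted p = 0.0205). It was smaller and not called under quantile normalization (0.14, adjusted p = 0.207), upper-quartile scaling (0.14, adjusted p = 0.193) and without DAC-resistant DMSO replicate 1 (0.13, adjusted p = 0.262). The difference between the DAC effects was -0.29 (95% interval -0.58 to 0.0031), called, of all alternatives run, only without DAC-resistant DMSO replicate 2 (-0.39, adjusted p = 0.0324). The gene ZNF771 on the other strand covers 41.2% of its exon bases, at between 0.173 and 0.447 FPKM.

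**Figure D3:**
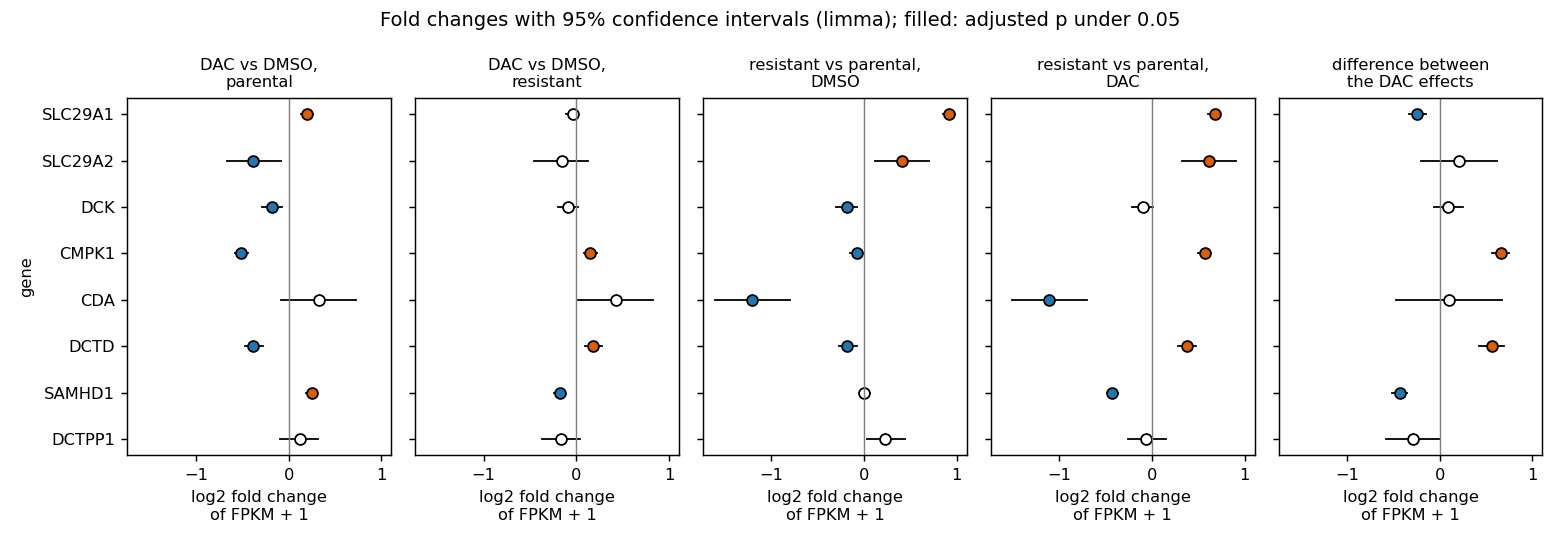
Log2 fold changes of FPKM + 1 (horizontal axes) with limma's 95% intervals for the 8 genes (rows) in the 4 comparisons and for the difference between the DAC effects, filled where the adjusted p is under 0.05. CDA lies furthest left between the lines, at -1.21 and -1.11, SLC29A1 furthest right in DMSO, at 0.92, and the largest difference between the DAC effects is that of CMPK1, at 0.66.

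Counted over the 8 genes, called changes were common and mostly under 2-fold. With DAC in parental cells 2 rose (SLC29A1 and SAMHD1) and 4 fell (SLC29A2, DCK, CMPK1 and DCTD) at a Benjamini-Hochberg adjusted p under 0.05, where 57.7% of all genes tested were called (33.6% higher and 24.1% lower). Their median log2 fold change was -0.03, beside 0.06 over all genes. With DAC in DAC-resistant cells 2 rose (CMPK1 and DCTD) and 1 fell (SAMHD1), against 11.2% of all genes (5.88% higher and 5.35% lower), with medians of -0.06 and 0.01. Between the lines in DMSO 2 were higher (both transporters) and 4 lower (DCK, CMPK1, CDA and DCTD) in DAC-resistant cells, where 57.5% of all genes were called (31.3% higher and 26.2% lower), with medians of -0.04 and 0.02. Under DAC 4 were higher (both transporters, CMPK1 and DCTD) and 2 lower (CDA and SAMHD1), against 67.0% of all genes (32.0% higher and 35.1% lower), with medians of 0.16 and -0.03. The DAC effect itself differed between the lines for 4 genes, upward for CMPK1 and DCTD and downward for SLC29A1 and SAMHD1, against 49.3% of all genes (20.9% higher and 28.4% lower), with medians of 0.10 and -0.05.

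A stricter call, unadjusted p up to 0.01 together with 2-fold on this scale, left CDA alone, in both comparisons of the lines, where 8.73% of all genes passed in DMSO and 14.5% under DAC. None of the 8 passed it with DAC in parental cells (9.31% of all genes), with DAC in DAC-resistant cells (0.235%) or for the difference between the effects (10.6%). CDA had itself passed the filter on low values through the parental line, where it is high. Each comparison with DAC shares libraries with each comparison of the lines. Permuting 2 libraries against 2 exactly gives no two-sided p under 0.333 for any one gene, so every adjusted p-value here leans on variances that limma moderates over all genes. The labels call the replicates biological and do not say that they were separate cultures, so p-values measure the spread between these libraries.

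The rest of the nucleoside and nucleotide pathway was followed with 4 lists. Of 5 other nucleoside transporters 3 passed the filter on low values; the concentrative transporters SLC28A1 and SLC28A2 did not exceed 0.0422 FPKM in any library. SLC28A3, a concentrative transporter with a broad range of nucleosides, had 0.0614 and 0.0128 FPKM in the parental line with DMSO, 1.08 and 1.01 with DAC, 0.980 and 0.712 in the DAC-resistant line given DMSO, and 0.707 and 0.566 with DAC. Only the parental DMSO libraries were near 0. It reached 1 FPKM in the parental DAC libraries alone and so passed the filter through the group where it is high, and its values are given as a description, with no test. The other 2 of the list were not called with DAC in either line, and 1, SLC29A4, was higher in the DAC-resistant line, by 0.75 in DMSO (adjusted p = 0.000438) and 0.41 under DAC (adjusted p = 0.00562), where 31.3% and 32.0% of all genes were higher. Both genes of nucleotide efflux, ABCC4 and ABCC5, rose with DAC in parental cells, by 0.46 and 0.33 (adjusted p = 0.00107 and 0.0111), where 33.6% of all genes rose. Neither was called with DAC in DAC-resistant cells (ABCC4 -0.04, ABCC5 -0.17), where 11.2% of all genes were. Between the lines in DMSO ABCC4 was higher in DAC-resistant cells by 0.69 (adjusted p = 0.000172), and ABCC5 was not called (0.09). Under DAC ABCC4 was higher by 0.18 (adjusted p = 0.0449) and ABCC5 lower, at -0.41 (adjusted p = 0.00341).

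Among 13 other kinases, all tested, 3 rose and 5 fell with DAC in the parental line and 2 fell in the DAC-resistant one, and DAC-resistant cells with DMSO had 6 higher and 1 lower. Under DAC the DAC-resistant line had 6 higher and 3 lower. Over all genes 57.7%, 11.2%, 57.5% and 67.0% were called in these comparisons, and the list medians were -0.13, -0.02, 0.28 and 0.20 beside 0.06, 0.01, 0.02 and -0.03 over all genes. CMPK2, a mitochondrial UMP-CMP kinase and a known interferon-stimulated gene, moved most. It stood at 2.91 and 2.97 FPKM in the parental line with DMSO, 42.0 in both libraries with DAC, 9.29 and 8.81 in the DAC-resistant line given DMSO, and 7.17 in both with DAC. CMPK2 thus rose with DAC in parental cells by 3.45 on the log2 scale (standard error 0.039, adjusted p = 3.4e-08), where CMPK1 fell, while the lines differed by 1.35 in DMSO (adjusted p = 1.4e-06) and by -2.40 under DAC (adjusted p = 1.0e-07). The difference between the DAC effects was -3.75 (adjusted p = 2.1e-07).

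Of 13 phosphatases and catabolic enzymes 12 passed the filter, but UPP1 did so through its parental DAC libraries alone (1.64 and 1.82 FPKM, against 0.421 to 0.944 in the other 6) and is left out of the counts. Of the other 11, 3 rose and 5 fell with DAC in the parental line, and 2 rose and 1 fell in the DAC-resistant one. In DMSO 1 was higher and 3 were lower in DAC-resistant cells, and under DAC 3 were higher and 5 lower. The shares of all genes called are those given for the kinases, and the medians of the 11 were 0.04, -0.02, 0.01 and -0.27. TYMP (thymidine phosphorylase) went from 4.04 and 4.16 FPKM to 49.8 and 49.2 with DAC in parental cells, and stood at 6.31 and 5.94 in the DAC-resistant line given DMSO and at 7.56 and 6.66 with DAC. The parental DAC libraries stood apart from the 6 others, with a log2 fold change of 3.31 with DAC (adjusted p = 1.6e-07) and a difference between the DAC effects of -3.12 (adjusted p = 1.5e-06). NT5M, a mitochondrial deoxyribonucleotidase, was lower in DAC-resistant cells with DMSO, at a mean of 2.18 FPKM against 5.47 (-1.02, adjusted p = 0.000210). Under DAC this difference was -0.29 (adjusted p = 0.0428). With DAC, NT5M fell in parental cells (-0.32, adjusted p = 0.0339) and rose in DAC-resistant cells (0.42, adjusted p = 0.0477). The difference between these DAC effects was 0.74 (adjusted p = 0.00578). NME1 and NME2 are adjacent and alike in sequence, so reads may be split between them and their values are uncertain.

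**Figure D4:**
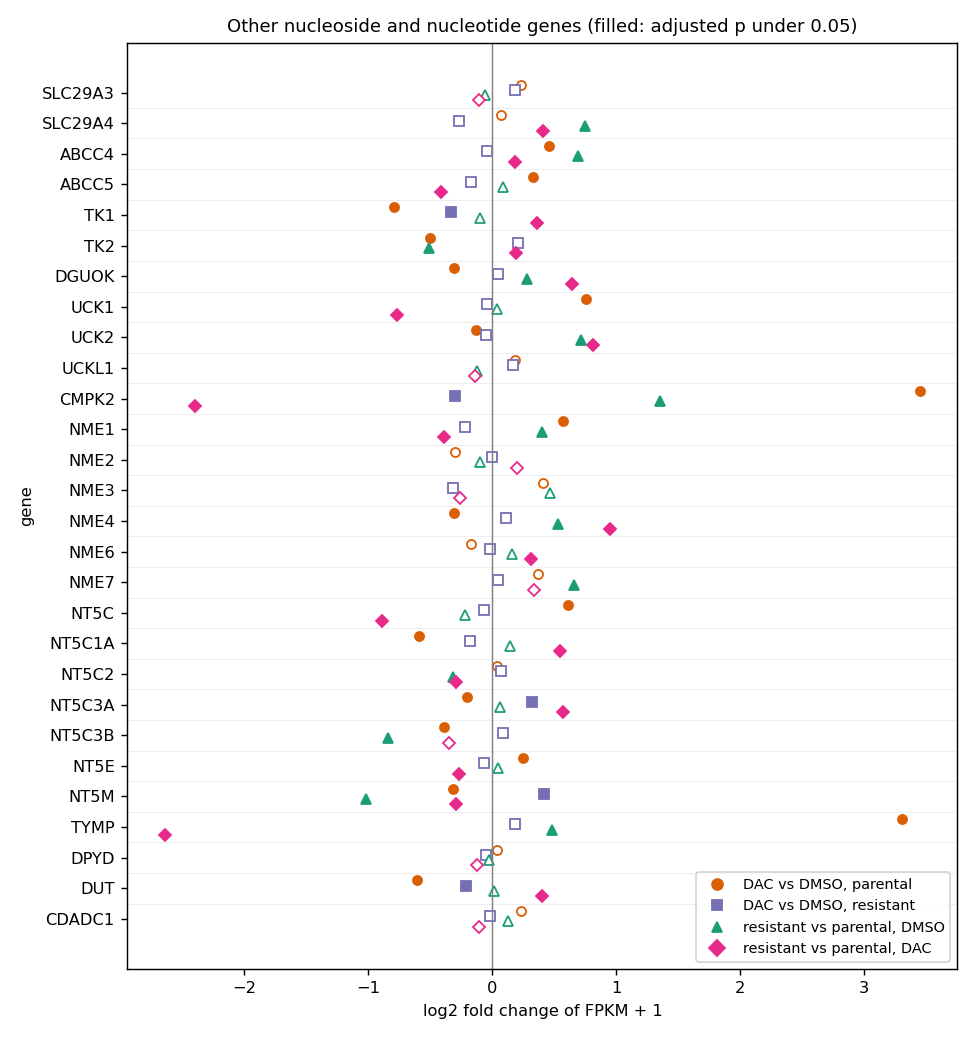
Log2 fold changes of FPKM + 1 (horizontal axis) for 28 genes of the 4 lists (rows; SLC28A3 and UPP1, which passed the filter through 1 group alone, are not drawn) in the 4 comparisons, by marker shape and colour, filled where the adjusted p is under 0.05. CMPK2 and TYMP stand apart with DAC in parental cells, at 3.45 and 3.31, and NT5M is the lowest between the lines in DMSO, at -1.02.

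Only CDA spanned at least 1 on the log2 scale between its lowest and highest group mean (1.53), so genes of like pattern were sought for it. The smallest Euclidean distance between centred log2(FPKM + 1) profiles over the 8 libraries was to CD55, at 0.37, followed by HENMT1 at 0.39 and CLDN15 at 0.41, where a flat profile would lie 1.77 from that of CDA. CD55, a complement inhibitor on the cell surface, had group means of 5.81 and 7.68 FPKM in parental cells with DMSO and DAC, and 2.16 and 2.76 in DAC-resistant cells. HENMT1, a small RNA methyltransferase, had 21.5, 26.8, 8.11 and 11.9 FPKM in the same order, and CLDN15, a tight junction claudin, had 6.65, 7.38, 2.47 and 2.75. They were picked for likeness to CDA, so their lower level in DAC-resistant cells follows from the choice and is no separate result. The 1 added to each value shortens the fold of CDA most, as the lowest of these genes. In plain FPKM CDA was 5.39-fold lower in DMSO.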

How the data were processed

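RNA-seq libraries from 8 samples in 4 groups of 2 were used. The authors trimmed reads with Cutadapt 1.9.1, aligned them to hg38 with HISAT2 2.1.0, sorted them with SAMtools 1.6 and counted them with HTSeq 0.13.5 on Ensembl GRCh38 genes, per the paper's methods and the submitters' processing notes. The deposited values are FPKM multiplied by 1000, so they were divided by 1000; the 1264 repeat families of the table were not used here. With exon lengths of GENCODE release 44, matched for 60463 identifiers, 87.1% of the gene values above 0 were whole reads within 0.02, and these reads gave depths and a voom alternative. Reads of CMPK1 were not whole with this exon length.

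FPKM are not counts, so log2(FPKM + 1) was fitted by limma 3.58.1 (R 4.3.3) to 4 group means, for genes that reached 1 FPKM in 2 or more libraries, with variances moderated along a trend (2.50 prior and 4 residual degrees of freedom). A call needed a two-sided Benjamini-Hochberg adjusted p under 0.05 over all 14899 genes tested. The fit was tested on simulated data for DAC against DMSO in parental cells. It called 54.1% of 74 genes with a true log2 fold change of 0.5, with a median estimate of 0.416. At a true value of 1 it called 85.7% of 77 genes, and at 0 it called 0.0603% of 13259. That setting had 13450 tested genes, most of them unchanged, while 57.7% of all genes were called in the measured libraries of this comparison. The percentages called therefore describe that setting only. How often the fit called unchanged genes, or missed changed ones, in the measured libraries was not tested. Replicates shared no identical values among genes of at least 20 reads, and their chi-square per gene was 4.01 to 4.26, above sampling noise. Promoters were read from RefSeq (GRCh38.p14). Named genes are the 8 genes, list genes called at a doubling or halving on this scale, at most 3 per list, and the 3 nearest profiles to a gene whose group means span at least 1 on the log2 scale; the other list genes named, ABCC4, ABCC5, SLC28A1, SLC28A2, SLC28A3, SLC29A4, UPP1, NME1 and NME2, were chosen after their values were seen. The genes and lists were chosen with earlier results of these data known.

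Alternatives were voom, the 2-fold call at an unadjusted p up to 0.01, a replicate block, a pseudocount of 0.1, all genes unfiltered, genes with a mean of 5 FPKM or more, TPM, upper-quartile scaling, quantile normalization, a fit to the 4 libraries of a comparison, and leaving out each library.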

Additional observations from a re-analysis of the deposited data

Results flagged for a closer look

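The effect of DAC differed between the 2 lines, by a test of the difference itself in limma, for 4 of the 8 genes, where 49.3% of all genes tested were called. The difference, DAC-resistant minus parental on the log2(FPKM + 1) scale, was 0.66 for CMPK1 (adjusted p = 4.4e-05) and 0.56 for DCTD (adjusted p = 0.000356), both of which fell with DAC in parental cells. It was -0.43 for SAMHD1 (adjusted p = 0.000134) and -0.24 for SLC29A1 (adjusted p = 0.00266), both of which rose there. For CMPK1, DCTD and SAMHD1 the lines moved in opposite directions. In DAC-resistant cells these moves were small, at 0.15, 0.18 and -0.18. There CMPK1 and DCTD lost their calls with any library of that comparison left out, and SAMHD1 with some. The calls of the difference itself held with each library left out in turn. Under upper-quartile scaling the difference of SLC29A1 was -0.13 (adjusted p = 0.0247).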

How the results depend on the processing

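Among recomputed log2 fold changes of the 8 genes, 474 kept direction and call, 43 lost the call, 6 gained it and 11 changed sign. Those that changed sign were small and not called in the reported fit: SAMHD1 between the lines in DMSO (0.0023), which became -0.11 under quantile normalization, -0.09 with upper-quartile scaling, -0.0017 by voom and -0.01 without parental DMSO replicate 1 or DAC-resistant DMSO replicate 1; DCK between the lines under DAC, 0.02 in TPM; DCTPP1 in the same comparison, 0.07 in TPM with a range of -0.13 to 0.02 when a library was left out; and the difference between the DAC effects of CDA, -0.04, -0.05 and -0.08 without parental DAC replicate 1, DAC-resistant DMSO replicate 1 or DAC-resistant DAC replicate 1 (range -0.08 to 0.28).

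The counts of changed genes among the 8 were 6, 3, 6, 6 and 4 for DAC in parental cells, DAC in DAC-resistant cells, the lines in DMSO, the lines under DAC and the difference between the DAC effects. Under the 2-fold call they were 0, 0, 1, 1 and 0. Without a filter, which tests more genes, that for DAC in DAC-resistant cells became 1 and that for the lines in DMSO 3. With only the 4 libraries compared, DAC in DAC-resistant cells gave 0. With a library left out, calls among the 8 could be lost with DAC in each line and between the lines in DMSO. Such a fit leaves 1 library in a group, and with DAC in either line it also called fewer of all genes. With DAC in DAC-resistant cells CMPK1 and DCTD lost their calls whichever of the 4 libraries was left out, and SAMHD1 for 2 of the 4. Between the lines in DMSO most calls were lost without parental DMSO replicate 1, and next most without DAC-resistant DMSO replicate 1. The replicate numbers pair nothing the labels name: differences between replicates 1 and 2 correlated between groups by -0.02 to 0.02, and with the replicate number as a block the counts were 5, 2, 5, 6 and 4, with calls lost for SLC29A2 with DAC in parental cells (adjusted p = 0.0565), DCTD with DAC in DAC-resistant cells (0.0667) and CMPK1 between the lines in DMSO (0.0688). Over all genes the counts of 8593, 1673, 8574, 9989 and 7350 moved by over 1.5 times with a filter on a mean of 5 FPKM (5181 for DAC in parental cells, 5161 and 5698 between the lines, 4732 for the difference), and for DAC in DAC-resistant cells without a filter (554), by voom (2905), with 4 libraries (434) and with a library left out (440 to 616). Quantile normalization moved the median of all genes with DAC in parental cells from 0.06 to -0.05. The log2 ratio of DCK to CDA in parental cells with DMSO and DAC and DAC-resistant cells with DMSO and DAC was 3.58, 2.94, 5.91 and 4.65 without a pseudocount and 3.52, 2.90, 5.57 and 4.49 with 0.1. The cause was not tested, except that a pseudocount shortens ratios to a low gene. Depth limits CDA most, where 1 read is worth 0.0382 to 0.0444 FPKM.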
